A study of Vitis vinifera with 36 samples.

Results

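'Summer Black' is a black table grape, and its bud sport 'Nantaihutezao' arose from a mutated shoot of it. The comparison described here is the first week of ripening in the parent: 6 of the 36 libraries of the study, 3 sampled at veraison (stage S5) and 3 taken 7 days later (stage S6). The members are all genes of the deposited read count table, taken without regard to their values. The table lists 27751 genes, 19539 of them had at least 1 read in the 6 libraries, and 15838 had enough reads to be tested. The GEO labels call the parent 'Sanbenti'. Vines of both cultivars stood under plastic film with routine fertilizer, water, pest and disease management, and no experimental treatment is named for either stage. RNA came from the pericarp according to the methods, while the labels say berry. The 3 libraries of a stage, a, b and c, are biological replicates, but the berries of a stage came from a few clusters, so the spread between libraries is that of such samples and not of many separate vines. S5 and S6 differ in sampling day as well as in ripeness, and these cannot be told apart.

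Veraison is the moment when a grape berry stops being hard, green and acid and begins to ripen. In the following weeks the berry softens, imports sucrose and stores hexoses, loses malate, and in black cultivars fills the vacuoles of its skin with anthocyanins, which are made from phenylalanine through the phenylpropanoid and flavonoid pathways. The change is commonly linked to abscisic acid, sugar and brassinosteroids, which promote it, and to auxin, which holds it back.

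The 3 S5 libraries held 15323095 to 15583937 reads on genes and the 3 S6 libraries 18086421 to 18252417, so a gene below about 0.16 CPM, the level of 3 reads in 1 library, could not be told from absent. Levels are in CPM, the reads of a gene relative to all reads of its library, scaled over all 36 libraries, and FPKM, a level per transcript length, is named where it was used. A gene is said to have risen, fallen or been called when its adjusted p in edgeR's quasi-likelihood test was under 0.05 and its log2 fold change, S6 against S5, was beyond 1 in size. By this rule 2834 of 15838 genes, 17.9%, were called. Of these, 1153 rose, 7.28% of the genes tested, and 1681 fell, 10.6%. Without the fold threshold 10650 genes passed, and the coefficient of biological variation between replicates was 0.057. At this spread 70.4% of the genes tested had 3 S6 values on 1 side of all 3 S5 values, so a gap between the groups is common and the size of the change separates genes better. The median log2 fold change of all genes tested was -0.02. Their summed level went from a mean of 819860 CPM at S5 to 967173 CPM at S6, against which sums over lists are read.

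The split between rises and falls moved with the scaling. The 10 highest genes took 5.75 to 5.90% of reads in the 3 S6 libraries, against 4.10 to 4.96% at S5. The factors of the trimmed-mean scaling were 1.07 to 1.09 at S5 and 0.92 at S6, and what set them apart was not tested. Scaled by library size alone, 752 genes rose and 2282 fell, and the median moved to -0.25. With upper-quartile scaling 969 rose and 1889 fell, with a median of -0.12. Falls were larger than rises under the main scaling: 615 genes fell and 242 rose by more than 4-fold, and 81 fell and 20 rose by more than 32-fold. Genes called higher took 7.14 to 7.35% of the reads at S5 and 17.6 to 17.7% at S6. Genes called lower took 5.65 to 7.00% at S5 and 1.62 to 2.07% at S6.

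**Figure D1:**
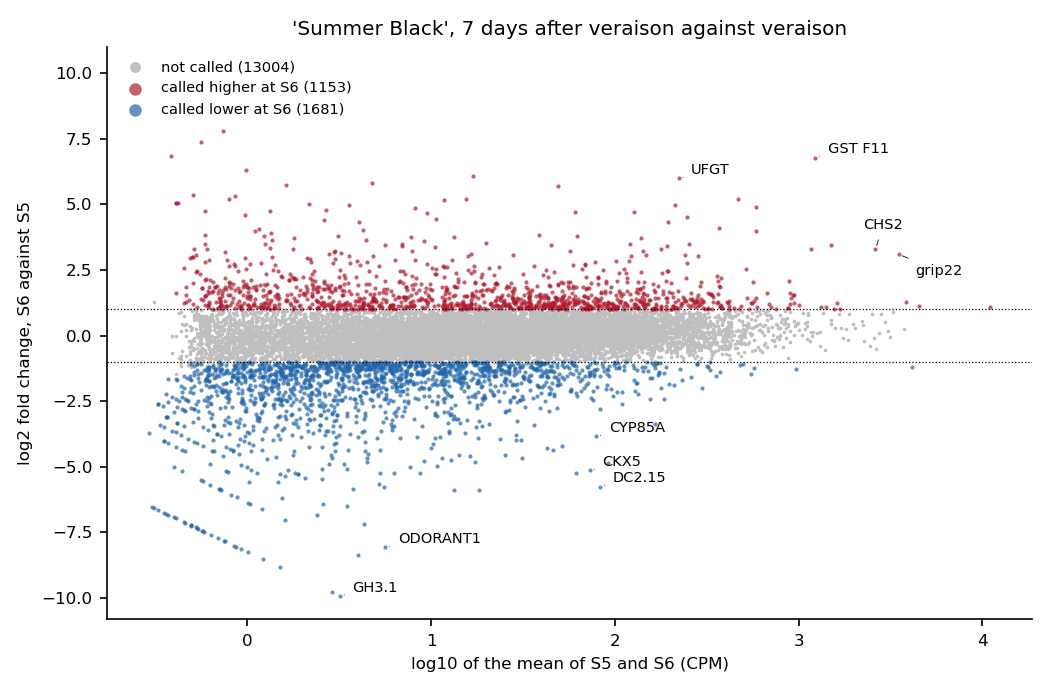
The log2 fold change of each gene tested, S6 against S5 in 'Summer Black' (vertical axis), against the log10 of its mean level in CPM (horizontal axis). Red points are the 1153 genes called higher, blue points the 1681 called lower, and dotted lines mark a log2 fold change of 1 and -1. The lower left is filled by genes with no or almost no reads at S6, whose position depends on a small prior count and is not a measured fold. Rises are found at the highest levels, for example GST F11, CHS2 and grip22.

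Of the 12 largest rises among annotated genes that reached 5 CPM and had no overlap between the stages, 4 belonged to anthocyanin synthesis, decoration or transport. A glutathione S-transferase F11 (VIT_04s0079g00710), of an enzyme class that escorts anthocyanins to the vacuole in several plants, was at 22.7, 22.0 and 21.3 CPM in the S5 libraries and at 2485, 2464 and 2379 CPM at S6. The stages were far apart, and the level rose 110-fold (log2 fold change 6.79 ± 0.04 SE, adjusted p = 2.94e-20). Anthocyanidin 3-O-glucosyltransferase (UFGT, VIT_16s0039g02230), which adds the sugar that makes the pigment stable, was at 6.45, 7.28 and 6.81 CPM and then at 448, 430 and 437 CPM. This was a rise of 63.5-fold (5.99 ± 0.05, adjusted p = 9.05e-19). A flavonoid 3',5'-hydroxylase (F3'5'H, VIT_06s0009g02810), the enzyme that leads to blue delphinidin-type pigments, rose 36.5-fold from 0.951, 0.744 and 0.745 CPM to 33.1, 28.2 and 29.2 CPM. An anthocyanidin 3-O-glucoside 5-O-glucosyltransferase (VIT_09s0002g06590), which adds a further sugar, rose 35.5-fold from 0.423, 0.744 and 0.745 CPM to 23.5, 23.8 and 21.9 CPM.

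The other large rises were of defence-type, aroma and wall proteins. Chitinase 5 (VIT_05s0094g00350), an enzyme that cuts fungal walls, went from 37.9, 34.9 and 39.1 CPM to 1151, 1142 and 1115 CPM, a 30.3-fold rise (4.92 ± 0.05). A neighbour with the same annotation (VIT_05s0094g00340), with which it may share reads, went from 252, 241 and 256 CPM to 2828, 2728 and 2754 CPM. MLP-like protein 43 (VIT_01s0011g05140), of the Bet v 1 family, rose 31.2-fold to 415, 412 and 413 CPM and went on rising to a mean of 6293 CPM at stage S9. Early nodulin-75 (VIT_05s0049g00570), a proline-rich wall protein, rose 37.0-fold from 24.5, 23.7 and 25.2 CPM to 894, 893 and 952 CPM and stood at a mean of 5384 CPM at S10. A phenylalanine N-monooxygenase (CYP79A2, VIT_06s0009g03120), which turns phenylalanine into its aldoxime in Arabidopsis, rose 56.5-fold from 0.159, 0.266 and 0.0532 CPM to 10.2, 8.38 and 9.75 CPM. A geraniol 8-hydroxylase (VIT_02s0012g02820), a cytochrome P450 of monoterpene metabolism, rose 29.3-fold. An acyltransferase annotated as vinorine synthase (VIT_03s0017g00870), whose namesake works in alkaloid synthesis in Rauvolfia, rose 52.6-fold from 1.37, 1.49 and 2.61 CPM to 97.6, 98.1 and 94.7 CPM. An endo-1,3;1,4-beta-glucanase (VIT_07s0104g00430) and a glycine-rich protein (VIT_12s0059g00490) completed the 12, with log2 fold changes of 4.98 ± 0.26 and 4.80 ± 0.41.

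The 12 largest falls were led by genes of hormone metabolism and gene regulation that were all but lost within the week. A GH3.1 auxin amido synthetase (VIT_07s0129g00660), of the enzymes that tie auxin to amino acids, was at 5.6, 5.95 and 7.61 CPM at S5 and had no read in any S6 library, at least 40.0-fold lower against the level of 3 reads per library. The transcription factor bHLH14 (VIT_02s0025g02610), a jasmonate-response repressor in Arabidopsis, was at 3.06, 7.97 and 6.33 CPM and then had no read, at least 36.2-fold lower. Both were absent from all 3 S6 libraries, so the size of the fall has a lower bound only. An ethylene-responsive factor 1B (VIT_07s0005g03260) fell from 8.61, 7.92 and 7.29 CPM to 1 read in all, a ratio of 447 with a 95% exact counting interval of 79.8 to 17699. ODORANT1 (VIT_16s0022g01210), a MYB regulator of floral scent in petunia, fell from 12, 10.9 and 10.6 CPM to a pair of reads, a ratio of 316 (87.0 to 2612). Ethylene-responsive factor 2 (VIT_15s0021g01630) fell from 9.20, 7.49 and 9.05 CPM to 3 reads, all in library a, a ratio of 161 (54.8 to 783). These intervals cover counting error only.

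Enzymes and receptors followed. Gibberellin 2-beta-dioxygenase 8 (VIT_06s0004g06790), which inactivates gibberellins, was at 36.9, 34.8 and 35.3 CPM at S5 and at 0.960, 0.477 and 0.375 CPM at S6. It fell 58.8-fold (log2 fold change -5.88 ± 0.16, adjusted p = 1.88e-13). A 14 kDa proline-rich protein DC2.15 (VIT_02s0154g00320), named after a carrot embryo transcript, had the highest S5 level among the 12, at 167, 163 and 160 CPM, and was at 2.83, 2.55 and 3.80 CPM at S6 (-5.75 ± 0.08). Cationic peroxidase 1 (VIT_18s0001g06850) fell from 6.13, 4.89 and 4.31 CPM to 3 reads in all, a ratio of 95.9 (32.5 to 468). A subtilisin-like protease (VIT_18s0001g10330), an ankyrin repeat protein (VIT_13s0106g00230), the receptor kinase HERK2 (VIT_10s0003g04990) and the aspartic protease ASPG2 (VIT_04s0008g07140) had log2 fold changes of -6.48 ± 0.33, -5.86 ± 0.17, -5.83 ± 0.58 and -5.77 ± 0.26. HERK2 was the least even of them, at 10.04, 3.93 and 8.14 CPM at S5 and with all its S6 reads in library b.

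**Figure D2:**
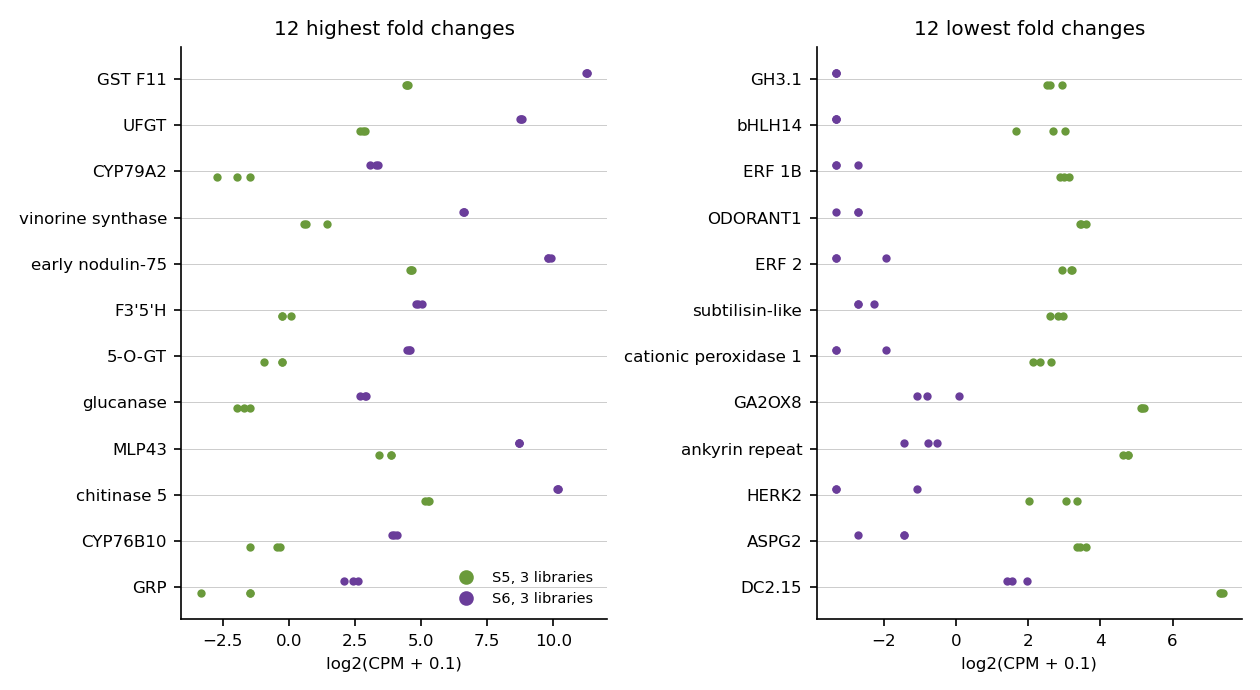
The level of the 12 annotated genes with the highest fold changes (left) and the 12 with the lowest (right), as log2 of CPM plus 0.1, with 1 point per library (green S5, purple S6, 3 libraries each). Genes were chosen so that no S5 point overlaps an S6 point of the same gene. Points at the far left of the right panel are libraries with no read.

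Ranked by level per length, the called genes with the highest FPKM were of several kinds. The highest, VIT_18s0072g00640, has no annotation, and rose from 7170, 6853 and 7077 CPM to 15295, 14823 and 14858 CPM (1.08 ± 0.03). The ripening protein grip22 (VIT_06s0004g02560) stood at 709, 730 and 736 CPM at S5 and at 6295, 6407 and 6128 CPM at S6, 8.60-fold higher (3.1 ± 0.03, adjusted p = 1.38e-18). A protein matched to the kiwifruit allergen Act d 3 (VIT_04s0008g05010) rose from 2262, 2235 and 2205 CPM to 5674, 5323 and 5326 CPM (1.27 ± 0.03). A probable lipid-transfer protein (VIT_17s0000g03280) rose 2.73-fold. In the other direction the dehydration-responsive protein RD22 (VIT_04s0008g03930), which drought and abscisic acid induce in Arabidopsis, was at 1373, 1487 and 1227 CPM and then at 678, 499 and 528 CPM (-1.27 ± 0.09). A small cysteine-rich CYSTM1 protein (VIT_00s0802g00010) fell 2.89-fold. Apart from grip22 these abundant genes moved by less than 3-fold, and each of them had 3 S6 values on 1 side of the 3 S5 values.

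Gene lists by function gave the wider picture. They were written from annotation names and pathway maps, apart from stilbene synthases and chalcone synthases, which are the transcripts the paper names. The paper named those for differing between the cultivars in these data, so they were not chosen without regard to their values. Each count is read against the 7.28% of all genes tested that rose and the 10.6% that fell. Among lists with at least 7 members tested, those with the highest share of rises were F3'5'H (7 of 7 tested), stilbene synthases (19 of 26) and xyloglucan endotransglucosylase/hydrolases (13 of 22). Those of this size with the highest share of falls were brassinosteroid synthesis (5 of 7), peroxidases (12 of 22) and AP2/ERF transcription factors (45 of 84). The proteasome and ribosome maps had the lowest share of calls among them, with 1 of 44 and 9 of 261 members called.

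**Figure D3:**
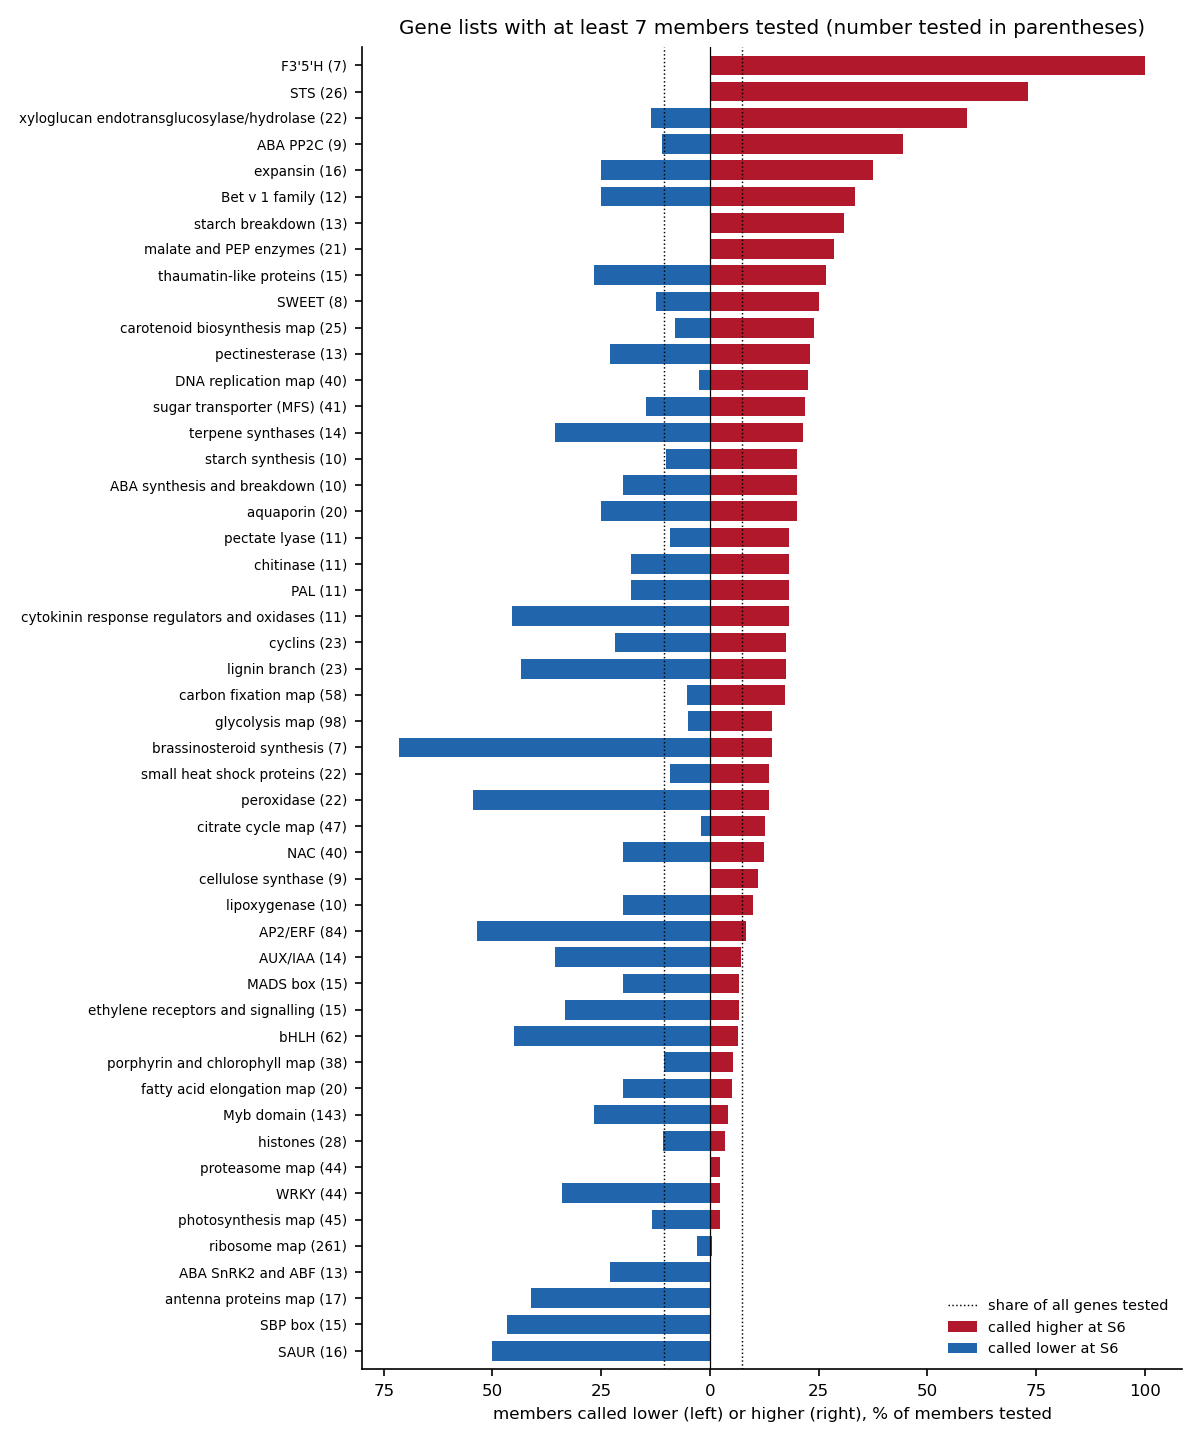
For each gene list with at least 7 members tested, the percentage of tested members called lower (blue, left of 0) and higher (red, right of 0) at S6. Numbers in parentheses are the members tested, and the dotted lines are the shares over all 15838 genes, 10.6% lower and 7.28% higher. F3'5'H and stilbene synthases lie at the top, followed by xyloglucan endotransglucosylase/hydrolases. The stilbene synthases are the copies the paper named as differing between the cultivars. Lists without a member called higher lie at the bottom, among them SAUR auxin-response genes, SBP-box transcription factors and antenna proteins. Flavonoid lists with fewer members tested are not drawn.

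In the general phenylpropanoid pathway, rises were found at each step, but not in all copies. Phenylalanine ammonia-lyase (PAL) takes phenylalanine into the pathway. Of 11 copies tested 2 rose and 2 fell, and 1 of the falls was lost without S5 library b or c or S6 library a or b. The highest riser, VIT_06s0004g02620, was at 20.6, 18 and 19.1 CPM and then at 249, 263 and 259 CPM, 13.3-fold higher (3.73 ± 0.05, adjusted p = 1.07e-16). A second copy, VIT_13s0019g04460, rose 6.46-fold, from 16.3, 16.5 and 14.6 CPM to 104, 98.8 and 105 CPM. A low copy went the other way, VIT_11s0016g01520, from 6.24, 4.84 and 6.55 CPM to 1.71, 1.80 and 2.14 CPM (-1.65 ± 0.19). All 3 cinnamate 4-hydroxylases tested rose, VIT_11s0065g00350 from 11.0, 10.4 and 11.4 CPM to 118, 97.1 and 96.8 CPM. Of 4 coumarate CoA ligases, which activate the acid for the branches below, 2 rose, 4CL3 (VIT_16s0039g02040) from 25.0, 28.1 and 27.8 CPM to 80.0, 74.3 and 81.7 CPM (1.53 ± 0.06).

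The flavonoid branch rose at every step down to the coloured anthocyanins. Chalcone synthase (CHS) opens the branch, and all 3 copies that the paper named as differing between the cultivars rose. CHS2 (VIT_05s0136g00260) went from 477, 489 and 491 CPM to 4884, 4752 and 4648 CPM, 9.74-fold higher (3.28 ± 0.03, adjusted p = 1.32e-18), while VIT_14s0068g00930 rose 5.78-fold. Chalcone isomerase (VIT_13s0067g03820), the next enzyme, was at 133, 140 and 130 CPM and then at 636, 623 and 603 CPM (2.20 ± 0.04). Flavanone 3-hydroxylase followed in both copies, with VIT_04s0023g03370 at 57.6, 63.7 and 61.6 CPM and then at 495, 521 and 511 CPM (3.05 ± 0.04), and VIT_18s0001g14310 2.22-fold higher. Dihydroflavonol reductase (DFR, VIT_18s0001g12800) rose from 60.3, 61.4 and 62.4 CPM to 195, 200 and 199 CPM (1.68 ± 0.04). Leucoanthocyanidin dioxygenase (LDOX, VIT_02s0025g04720), which makes the coloured anthocyanidin, rose from 211, 213 and 216 CPM to 2234, 2076 and 2042 CPM (3.30 ± 0.04).

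The hydroxylases that set the hue differed in size of rise. The only flavonoid 3'-hydroxylase tested (VIT_17s0000g07210), on the way to cyanidin-type pigments, rose 2.56-fold, from 85.7, 84.6 and 86.4 CPM to 222, 225 and 214 CPM (1.35 ± 0.04). All 7 F3'5'H copies tested rose, with a median log2 fold change of 4.72. The main copy, VIT_06s0009g02840, went from 9.30, 8.61 and 9.74 CPM to 236, 242 and 257 CPM, 26.4-fold higher (4.72 ± 0.06). Low copies started at or near 0, such as VIT_06s0009g03050, with no read at S5 and 0.693, 0.583 and 1.02 CPM at S6, at least 4.80-fold higher. Copies of F3'5'H, CHS and stilbene synthase carry the same annotation, and whether they share reads was not tested, so the copies were also summed, a choice made after seeing the data. The 12 F3'5'H copies summed to 14.5, 12.3 and 12.6 CPM at S5 and to 324, 318 and 332 CPM at S6, 24.6-fold higher (4.62 ± 0.06, adjusted p = 1.82e-17). The 3 CHS copies summed to 637.6 ± 8.90 CPM (SD, n = 3) and 5649 ± 181 CPM, 8.81-fold higher (adjusted p = 3.12e-18).

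Of 5 genes tested in a list of anthocyanin regulators, glucosyl- and methyltransferases and transporters, 4 rose, UFGT as given above among them. A MYB114-type transcription factor (VIT_02s0033g00450), of the MYB group that switches on anthocyanin genes, was at 30.3, 30.8 and 21.4 CPM and then at 264, 271 and 238 CPM, 9.30-fold higher (3.22 ± 0.10). The flavonoid 3',5'-methyltransferase FAOMT (VIT_01s0010g03510), which turns delphinidin-type into malvidin-type pigments in grape, rose 25.9-fold, from 4.70, 4.25 and 4.47 CPM to 115, 126 and 109 CPM (4.69 ± 0.08). A TRANSPARENT TESTA 12-like transporter (VIT_16s0050g00910), of a family that moves flavonoids into the vacuole, rose from 71.4, 66.4 and 71.0 CPM to 1159, 1126 and 1019 CPM (3.97 ± 0.05), whereas its neighbour VIT_16s0050g00930 had a log2 fold change of 0.80 and was not called.

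Enzymes that lead flavonoid precursors elsewhere gave 3 falls and no rise of 4 tested. Leucoanthocyanidin reductase and anthocyanidin reductase make the flavan-3-ol units of tannins. The leucoanthocyanidin reductase VIT_17s0000g04150 was at 123, 132 and 118 CPM and then at 27.7, 22.8 and 21.7 CPM (-2.37 ± 0.08, adjusted p = 9.25e-13), while the other copy had a log2 fold change of 0.85 and was not called. The anthocyanidin reductase (VIT_00s0361g00040) fell from 31.4, 33.1 and 29.97 CPM to 14.0, 12.8 and 10.6 CPM (-1.35 ± 0.10). Flavonol synthase (VIT_18s0001g03430) fell from 18.3, 17.3 and 17.8 CPM to 7.20, 8.75 and 8.68 CPM (-1.13 ± 0.10).

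**Figure D4:**
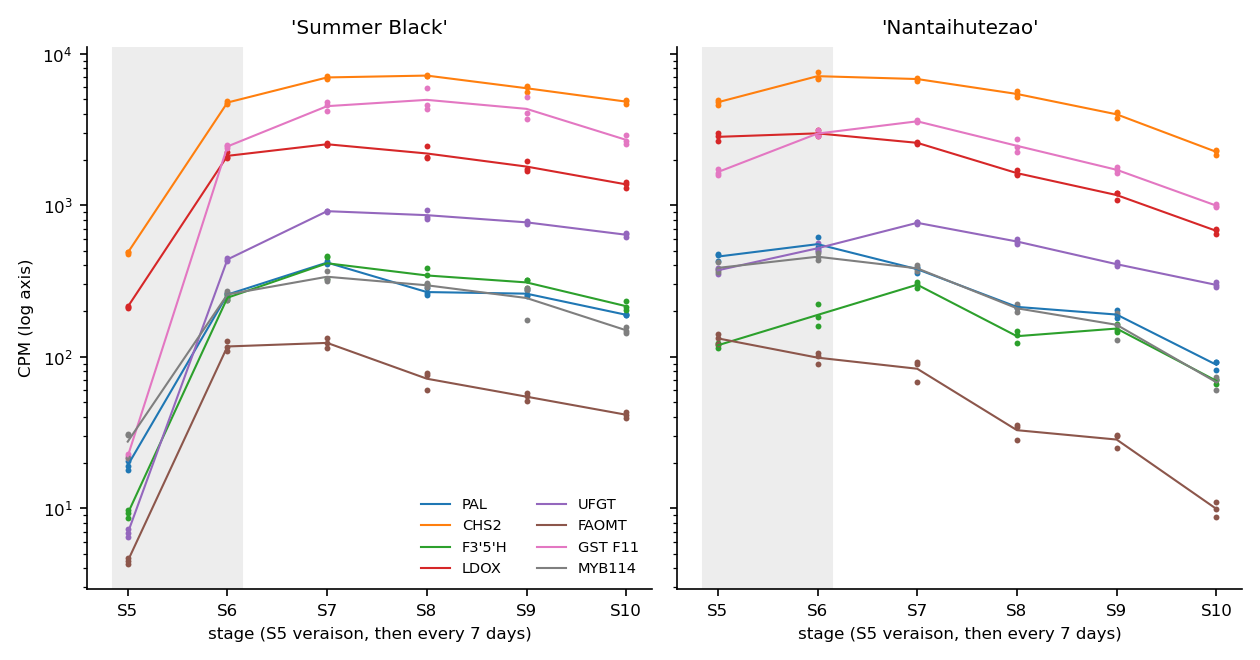
The level in CPM (log axis) of 8 phenylpropanoid and anthocyanin genes from S5 to S10 in 'Summer Black' (left) and 'Nantaihutezao' (right). Points are libraries and lines join the means of 3 libraries, with the S5 to S6 interval shaded. In 'Summer Black' all 8 lines climb steeply in the shaded interval, for UFGT from a mean of 6.85 CPM to 438 CPM, and in 'Nantaihutezao' the lines begin high at S5.

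Stilbene synthase (STS) competes with CHS for the same substrate and makes resveratrol, a defence compound of grape. The copies are the 27 that the paper named as differing between the cultivars in these data. Of 26 tested 19 rose, none fell, and the median log2 fold change was 1.38. STS levels were far below those of CHS in reads. The copy VIT_16s0100g01150 was at 16.6, 17.9 and 16.4 CPM and then at 40.0, 36.3 and 33.5 CPM (1.10 ± 0.08), and VIT_16s0100g00750 rose 3.09-fold. All 27 copies summed to 139, 133 and 129 CPM at S5 and to 354, 294 and 285 CPM at S6, 2.31-fold higher (1.20 ± 0.07, adjusted p = 4.48e-10). The summed rise was larger than the replicate spread, with S6 library a above the other two. The number of copies called moved between 17 and 20 when single libraries were left out, and was 15 with library size alone.

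The lignin branch and the peroxidases went down more often than up. Of 23 lignin-branch genes tested 4 rose and 10 fell, with a median of -0.87. Caffeoyl-CoA O-methyltransferase 1 (VIT_03s0063g00140), a methylating enzyme of lignin synthesis, was at 38.0, 39.2 and 36.3 CPM and then at 4.16, 3.39 and 3.48 CPM, 10.3-fold lower (-3.37 ± 0.10). A caffeic acid O-methyltransferase (VIT_02s0025g02920) went the other way, from 5.34, 5.0 and 3.51 CPM to 33.4, 27.4 and 28.3 CPM (2.67 ± 0.13). A pair annotated as probable mannitol dehydrogenases, of the cinnamyl alcohol dehydrogenase family (VIT_00s0371g00050 and VIT_00s0346g00120), rose 4.11- and 4.67-fold. Of 22 peroxidases, which couple phenolic units in the wall among other tasks, 3 rose and 12 fell, with a median of -1.52. Peroxidase 42 (VIT_10s0116g01780) fell from 355, 363 and 347 CPM to 114, 111 and 107 CPM (-1.69 ± 0.04), and peroxidase 31 (VIT_14s0066g01850) rose from 29, 29.1 and 26.5 CPM to 59.8, 64.2 and 60.9 CPM.

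Sugar genes changed at particular steps. Sucrose phosphate synthase, which makes sucrose, rose in 3 of 5 copies. SPS1 (VIT_11s0118g00200) was at 323, 313 and 347 CPM and then at 977, 1017 and 1041 CPM (1.62 ± 0.04, adjusted p = 6.89e-14). Sucrose synthase, which splits sucrose reversibly, had 1 copy up and 1 down of 2 tested, and SUS2 (VIT_07s0005g00750) rose from 854, 804 and 891 CPM to 1714, 1826 and 1877 CPM (1.08 ± 0.04). None of the 5 invertases tested was called. Sugar transporters of the major facilitator family moved both ways, 9 of 41 up and 6 down. The sucrose carrier SUC2 (VIT_18s0076g00250) fell from 326, 321 and 340 CPM to 98.6, 85.5 and 88.6 CPM (-1.86 ± 0.05). The monosaccharide-sensing protein MSSP2 (VIT_18s0122g00850), a vacuolar-membrane carrier, rose from 154, 156 and 159 CPM to 470, 493 and 502 CPM (1.64 ± 0.04). Among the ERD6-like carriers, number 16 (VIT_05s0020g02170) rose 12.1-fold and number 7 (VIT_07s0104g00830) fell 7.44-fold. The sugar exporter SWEET15 (VIT_01s0146g00260) was low, at 1.43, 1.01 and 1.12 CPM, and reached 11.3, 12.2 and 14.7 CPM at S6 and a mean of 319 CPM at S9. SWEET10 (VIT_17s0000g00830) rose 2.19-fold, and SWEET17 (VIT_05s0077g02260), a vacuolar fructose carrier in Arabidopsis, fell 3.55-fold.

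Starch breakdown and acid metabolism rose in part. Of 13 starch breakdown genes 4 rose and none fell. Beta-amylase 1 (VIT_05s0077g00280) was at 320, 313 and 332 CPM and then at 766, 771 and 785 CPM (1.26 ± 0.03), and beta-amylase 3 (VIT_02s0012g00170) rose 2.73-fold. Both alpha-glucan phosphorylases called (VIT_06s0004g06020 and VIT_14s0108g01560) rose, 2.61- and 2.92-fold. Of 21 genes for enzymes of malate and phosphoenolpyruvate 6 rose and none fell. The NADP-malic enzyme VIT_04s0008g00180, which turns malate into pyruvate, rose from 120, 125 and 123 CPM to 580, 604 and 610 CPM, 4.84-fold (2.27 ± 0.04). Phosphoenolpyruvate carboxykinase (VIT_00s1995g00010), the entry from malate into sugar synthesis, rose from 472, 463 and 479 CPM to 1358, 1415 and 1394 CPM (1.55 ± 0.03). In the glycolysis map 14 of 98 members rose and 5 fell, and in the citrate cycle map 6 of 47 rose and 1 fell. With library size alone these counts became 10 and 8, and 5 and 2.

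Wall-loosening genes were among the lists with most rises. Xyloglucan endotransglucosylase/hydrolases (XTH) cut and rejoin the xyloglucan chains that tether cellulose. Of 22 tested, 13 rose and 3 fell, with a median of 1.19. XTR8 (VIT_06s0061g00550) was at 33.0, 36.5 and 36.4 CPM and then at 140, 145 and 145 CPM (2.01 ± 0.05). The faller VIT_00s0386g00050 went from 60.6, 67.4 and 62.8 CPM to 28.3, 25.0 and 22.5 CPM (-1.34 ± 0.08). Of 16 expansins, which loosen walls without cutting them, 6 rose and 4 fell. Expansin A10 (VIT_01s0026g02620) rose from 119, 111 and 103 CPM to 292, 257 and 271 CPM (1.29 ± 0.06). Expansin B2 (VIT_09s0002g08510) fell from 3.01, 3.35 and 2.24 CPM to 3 reads in all, a ratio of 53.8 (18.1 to 263). Of 13 pectinesterases, which take methyl groups from pectin, 3 rose and 3 fell, and pectinesterase 25 (VIT_13s0047g00230) rose from 28.2, 34.3 and 31.8 CPM to 271, 262 and 259 CPM (3.06 ± 0.06). None of 11 polygalacturonases had enough reads to be tested. Of 9 cellulose synthases 1 rose, CESA2 (VIT_18s0072g00370), from 65.6, 62.1 and 69.1 CPM to 241, 262 and 269 CPM (1.96 ± 0.05).

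Aquaporins, the water channels, were mixed, with 4 of 20 up and 5 down. The vacuolar-membrane channel TIP1-1 (VIT_08s0007g04780) rose from 611, 622 and 621 CPM to 1393, 1409 and 1369 CPM (1.16 ± 0.03). NIP2-1 (VIT_14s0108g00700), a silicon channel in rice, fell from 1.69, 1.97 and 1.44 CPM to 0.107, 0.106 and 0.0536 CPM (-4.17 ± 0.47).

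Abscisic acid genes moved in both directions. Protein phosphatases 2C hold the abscisic acid response in check and are themselves induced by it. Of 9 tested 4 rose and 1 fell. PP2C37 (VIT_13s0019g02200) was at 212, 210 and 216 CPM and then at 519, 527 and 513 CPM (1.28 ± 0.03, adjusted p = 1.38e-13). VIT_16s0050g02680 had the largest rise of them, 3.28-fold. The receptor PYL9 (VIT_15s0046g01050) fell from 114, 113 and 115 CPM to 42.2, 37.8 and 38.3 CPM (-1.54 ± 0.05), 1 of 5 receptors tested. The kinase SRK2A (VIT_12s0035g00310) fell from 230, 220 and 231 CPM to 107, 108 and 108 CPM. Of 10 genes of its synthesis and breakdown 2 rose and 2 fell. A 9-cis-epoxycarotenoid dioxygenase (VIT_10s0003g03750), the rate-limiting step of abscisic acid synthesis, fell from 22.4, 20.9 and 19.5 CPM to 10.1, 8.75 and 8.35 CPM (-1.22 ± 0.10). Abscisate beta-glucosyltransferase (VIT_03s0063g00050), which stores the hormone as a glucose ester, rose 2.09-fold, and a probable carotenoid cleavage dioxygenase (VIT_02s0087g00930) rose from 1.0, 1.01 and 1.06 CPM to 2.56, 3.71 and 5.03 CPM (1.86 ± 0.28).

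Ethylene genes fell more often than they rose. Of 5 genes for its synthesis 3 fell and none rose, with a median of -1.66. ACS6 (VIT_02s0025g00360), a synthase of the precursor ACC, was at 50.5, 52.2 and 50.9 CPM and then at 17.1, 16.6 and 15.2 CPM (-1.66 ± 0.06). An ACC oxidase (VIT_00s2086g00010), which releases ethylene, fell from 60.1, 58.2 and 61.4 CPM to 17.2, 15.4 and 15.6 CPM (-1.91 ± 0.06). Of 15 genes of ethylene perception and signalling 5 fell and 1 rose, the rise being lost without S5 library a, and ethylene receptor 2 (VIT_05s0049g00090) fell from 671, 677 and 695.5 CPM to 308, 322 and 332 CPM (-1.10 ± 0.04).

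Auxin-response genes, many of which auxin induces within minutes, also fell. Of 16 SAUR genes 8 fell and none rose, with a median of -1.04. The SAUR-type auxin-induced protein 6B (VIT_03s0038g00940) was at 16.3, 15 and 17.4 CPM and then at 4.21, 3.66 and 2.20 CPM (-2.28 ± 0.16). Of 14 AUX/IAA repressors 1 rose and 5 fell, a number of falls that became 3 without S6 library c. AUX22D (VIT_14s0030g02310) fell 19.4-fold, from 18.5, 20.7 and 17.5 CPM to 0.746, 1.17 and 1.02 CPM (-4.28 ± 0.16). Auxin response factor 5 (VIT_18s0001g13930) rose from 2.59, 3.67 and 4.58 CPM to 13.6, 14.6 and 14.1 CPM (1.96 ± 0.15), and auxin response factor 11 (VIT_15s0046g00290) fell 5.6-fold. Among 3 gibberellin oxidases 2 fell, both of the inactivating 2-oxidase kind, GA2OX8 as given above and GA2OX1 (VIT_19s0140g00120) from 48.8, 46.8 and 48.7 CPM to 14.4, 12 and 15.2 CPM (-1.80 ± 0.08).

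Of 7 brassinosteroid synthesis genes 5 fell and 1 rose, with a median of -3.17. CYP85A (VIT_14s0083g01110), which makes the active castasterone, was at 151, 147 and 147 CPM and then at 9.97, 11.1 and 10.4 CPM, 14.2-fold lower (-3.83 ± 0.06, adjusted p = 1.69e-16). ROT3 (VIT_04s0023g02650), an earlier hydroxylase, fell from 50.7, 51.1 and 56.6 CPM to 6.5, 5.30 and 4.93 CPM (-3.25 ± 0.09), and CYP90B1 (VIT_04s0023g01640), which starts the side-chain route, fell 4.70-fold. The fallers included an enzyme that breaks the hormone down, CYP734A1 (VIT_09s0002g05980), from 2.96, 2.60 and 4.21 CPM to 0.0533, 0.212 and 0 CPM. The riser was CPD (VIT_13s0067g00660), which acts on the ring, from 14.0, 14.2 and 14.4 CPM to 51.9, 54.8 and 49.0 CPM (1.86 ± 0.07).

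Of 11 cytokinin genes 2 rose and 5 fell. Cytokinin dehydrogenase 5 (CKX5, VIT_18s0001g13200), which destroys the hormone, fell from 141, 151 and 136 CPM to 4.74, 3.13 and 4.45 CPM, 34.9-fold lower (-5.12 ± 0.09), while CKX3 (VIT_11s0016g02110) rose from 5.65, 6.64 and 6.49 CPM to 33.6, 31.9 and 29.8 CPM (2.33 ± 0.09). The response regulator annotated at VIT_17s0000g07580 fell 4.03-fold. Of 6 JAZ repressors of the jasmonate response 3 fell and none rose. TIFY 10A (VIT_09s0002g00890) was at 391, 410 and 363 CPM and then at 149, 121 and 124 CPM (-1.58 ± 0.07).

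In each transcription factor family listed, more genes fell than rose. Of 84 AP2/ERF genes, the family that holds the ethylene response factors, 7 rose and 45 fell, with a median of -1.28 against -0.02 for all genes. ERF110 (VIT_18s0072g00260), the most abundant faller named here, was at 476, 491 and 467 CPM and then at 137, 115 and 112 CPM (-1.99 ± 0.06). An ERF at VIT_14s0081g00730 was at 2.96, 3.03 and 3.03 CPM and had no read at S6, at least 18.8-fold lower. The riser VIT_16s0100g00400 went from 72.0, 74.1 and 72.6 CPM to 277, 267 and 268 CPM (1.88 ± 0.04). The falls were 48 with either other scaling, and 45 to 48 without single libraries.

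Of 44 WRKY genes 1 rose and 15 fell, with a median of -0.75, and the rise was lost without S5 library c or S6 library a and under both other scalings. WRKY70 (VIT_08s0058g01390), which balances salicylate and jasmonate defences in Arabidopsis, fell from 10.1, 7.28 and 8.68 CPM to 0.373, 0.212 and 0.321 CPM (-4.83 ± 0.25). Of 62 bHLH genes 4 rose and 28 fell, and of 143 genes with a Myb domain 6 rose and 38 fell. Of 15 SBP-box genes none rose and 7 fell, and of 15 MADS-box genes 1 rose and 3 fell. Summed levels went up for Myb (4049 to 4222 CPM), SBP-box (962 to 1192), NAC (2578 to 2834) and MADS-box genes (1365 to 1575). They went down for AP2/ERF (4075 to 3442 CPM), WRKY (2093 to 1699) and bHLH genes (2648 to 2348). The sum over all genes tested went from 819860 to 967173 CPM. SPL8 (VIT_15s0021g02300), an SBP-box factor, was at 46.2, 49.9 and 49.5 CPM and then at 3.09, 1.22 and 1.87 CPM (-4.56 ± 0.15). MYB44 (VIT_18s0001g09850), a stress regulator in Arabidopsis, rose from 65.8, 72.8 and 66.9 CPM to 174, 182 and 175 CPM (1.36 ± 0.05). NAC genes were more even, 5 of 40 up and 8 down. The NAC gene VIT_17s0000g06400 rose from 42.0, 40.4 and 43.4 CPM to 112, 111 and 117 CPM, and NAC036 (VIT_03s0038g03410) fell from 11.6, 9.57 and 9.48 CPM to 0.426, 0.106 and 0.268 CPM.

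Of 17 light-harvesting antenna proteins, which carry chlorophyll, 7 fell and none rose, with a median of -0.61, and their summed level went from 1032 CPM to 744 CPM. A chlorophyll a-b binding protein (VIT_10s0003g02890) fell from 101.4, 102 and 111 CPM to 40.6, 40.1 and 39.4 CPM (-1.40 ± 0.05), and another (VIT_07s0005g02220) 9.97-fold. In the photosynthesis map 1 of 45 rose and 6 fell, the fallers including psbA, described below with the organelle genes. Chlorophyll synthesis went partly the other way. The ChlH subunit of magnesium chelatase (VIT_08s0007g08540) rose from 28.1, 27.7 and 28.6 CPM to 125, 136 and 140 CPM (2.24 ± 0.05). Few ribosomal proteins were called, 1 of 261 up and 8 down, with a median of -0.42, and their summed level went from 40260 CPM to 30156 CPM. With library size alone 31 of them were called lower.

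Among growth genes, 9 of 40 in the DNA replication map rose and 1 fell (5 and 3 with library size alone). MCM6 (VIT_00s0184g00040), part of the replication helicase, was low throughout, from 0.159, 0.213 and 0.426 CPM to 0.960, 1.27 and 1.5 CPM (2.19 ± 0.44). Of 23 cyclins 4 rose and 5 fell. Cyclin D3-3 (VIT_07s0129g01100) fell from 4.54, 5.90 and 4.47 CPM to 0.107, 0.0530 and 0.268 CPM (-5.07 ± 0.37), and cyclin D4-1 (VIT_03s0091g01060) rose 2.43-fold. Of 28 histones 1 rose and 3 fell.

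Defence-type proteins that mark ripe berries moved in both directions. Of 15 thaumatin-like proteins 4 rose and 4 fell. A thaumatin-like protein (VIT_02s0025g04330) was at 21.2, 18.8 and 18.4 CPM and then at 231, 216 and 221 CPM, 11.4-fold higher (3.51 ± 0.06). Another (VIT_17s0000g02470) fell 13.7-fold, from 49.5, 56.7 and 55.6 CPM to 5.12, 3.92 and 2.84 CPM (-3.77 ± 0.12). Of 12 Bet v 1 proteins 4 rose and 3 fell, among them a Pru ar 1 match (VIT_05s0077g01670) that rose 5.30-fold and MLP-like protein 34 (VIT_01s0011g05190) that fell 2.63-fold. Of 11 chitinases 2 rose, both given above, and 2 fell, or 3 without S5 library c or S6 library a or b.

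Aroma and surface genes were mixed. Of 10 lipoxygenases 1 rose and 2 fell, but 2 rose without S6 library b, 1 fell without S5 library a and none fell without S6 library a. The riser VIT_06s0004g01510, a 13-lipoxygenase, which starts the route to leafy aldehydes, rose from 433, 423 and 446 CPM to 1368, 1357 and 1365 CPM (1.64 ± 0.03). Of 14 terpene synthases 3 rose and 5 fell. A germacrene D synthase (VIT_19s0014g04930) fell from 51.1, 53.5 and 47.2 CPM to 19.2, 16 and 17.4 CPM (-1.54 ± 0.08). Valencene synthase (VIT_18s0001g04220) rose from 3 reads in all at S5 to 3.68, 2.76 and 3.11 CPM, a ratio of 59.9 (20.2 to 293). CYP86A7 (VIT_02s0025g03320), of the fatty acid hydroxylases that make cutin, fell from 82.4, 83.4 and 66.0 CPM to 11.7, 8.06 and 11.9 CPM (-2.88 ± 0.12). In the fatty acid elongation map 1 of 20 rose (2 without S5 library a) and 4 fell, and in the cuticle wax map 2 of 5 fell. A KCS11-type elongase (VIT_11s0016g04700) rose from 138, 140 and 138 CPM to 339, 352 and 344 CPM, and another of that name (VIT_18s0001g02720) fell from 1.48, 2.39 and 1.92 CPM to 3 reads in all, a ratio of 36.2 (12.1 to 178).

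Markers of other tissues were checked, since pericarp can carry traces of seed. Of 6 oleosins, the coat proteins of seed oil bodies, 2 were at 0 in all 6 libraries, 3 rose and 1 fell, and their sum was 3.54, 3.67 and 3.41 CPM at S5 and 11.5, 13.2 and 12.6 CPM at S6. Of 8 seed storage proteins 5 were at 0, and nearly all of their sum came from a glutelin type-A match (VIT_06s0004g04060) at 269, 261 and 275 CPM and then at 337, 341 and 332 CPM, which was not called (0.32 ± 0.04). The cruciferin match (VIT_07s0005g03420) was at 2.17, 1.97 and 1.92 CPM and had no read at S6, at least 12.6-fold lower. Of 33 proteins annotated as pollen-specific 4 were at 0, and of 26 tested none rose and 3 fell. Their sum moved from 2190 CPM to 2599 CPM, while the sum over all genes tested moved from 819860 to 967173 CPM. The part of seed tissue in the results was not tested, and fewer cells of a type and less RNA per cell cannot be told apart in such samples.

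Genes annotated to the chloroplast and mitochondrial genomes varied between libraries. They took 0.0299, 0.0248 and 0.0129% of the reads in S5 libraries a, b and c and 0.0125, 0.00721 and 0.00886% at S6, against 0.00553 to 0.0114% in the other 30 libraries of the study. Of 14 tested 3 fell and none rose. Among them psbA (VIT_13s0019g02630), a photosystem II core protein, was at 147, 115 and 39.6 CPM and then at 37.5, 8.17 and 22.1 CPM (-2.17 ± 0.42). The lowest S5 library nearly met the highest S6 library.

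Genes called between S5 and S6 reached their extreme means at different stages. Of the 1153 genes called higher, 393 had their highest mean of the 6 stages at S6, 277 at S9 and 243 at S10. Some turned back later, and 159 of them had their lowest mean at S10. Of the 1681 called lower, 310 had their lowest mean at S6, 654 at S9 and 372 at S10, while 83 had their highest mean at S10. These are counts within genes chosen for their change between S5 and S6, and are given as a description.

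The week after veraison in the bud sport gave fewer calls. Stages are counted from the veraison of each cultivar, and the paper describes the bud sport as maturing about 2 weeks before its parent. Whether the stages of the 2 cultivars match in date or ripeness was not tested. In 'Nantaihutezao', whose veraison was also named S5, 1005 of 15529 genes were called, 6.47%, of which 249 rose (1.60%) and 756 fell (4.87%). There were 585 genes called in both cultivars, 20.6% of the 'Summer Black' calls and 58.2% of the 'Nantaihutezao' calls. Of these 117 rose in both, 412 fell in both and 56 went in opposite directions. The difference between the changes of the 2 cultivars was tested as an interaction over 12 libraries, and 2050 of 16263 genes, 12.6%, passed, 1151 with a more positive change in 'Summer Black' (7.08%) and 899 with a more negative one (5.53%). Of the 1153 genes called higher in 'Summer Black', 732 also had a change more positive than in the bud sport by this test, and of the 1681 called lower, 697 had a change more negative. These shares come from genes chosen for a large change in 1 of the cultivars compared, and are a description.

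Anthocyanin genes differed between the cultivars. Among all F3'5'H copies tested for the difference, 7 of 8 had a more positive change in 'Summer Black', against 7.08% of all genes. GST F11 (VIT_04s0079g00710) was at a mean of 1655 CPM at S5 and 2971 CPM at S6 in 'Nantaihutezao', and its change differed by 5.93 ± 0.06 on the log2 scale. UFGT (VIT_16s0039g02230) was at 372 and 520 CPM there, with a difference of 5.50 ± 0.09, and FAOMT (VIT_01s0010g03510) was at 132 and 98.6 CPM, with a difference of 5.11 ± 0.12. In each case the bud sport at its S5 was already far above 'Summer Black' at S5, and its own change to S6 was small.

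Stilbene synthases and AP2/ERF genes behaved otherwise. In 'Nantaihutezao' 21 of 27 STS copies rose, against 1.60% of all genes tested there. The paper reported these copies as higher in 'Nantaihutezao' than in the parent at some stages, so this share describes chosen copies. The difference was called for 5 of 27 copies, all with the smaller rise in 'Summer Black'. Of 68 AP2/ERF genes tested in 'Nantaihutezao' 2 rose and 12 fell, against 1.60% and 4.87% of all genes. Of 85 tested for the difference 8 had a more positive and 25 a more negative change in 'Summer Black'. Over all genes tested for the difference these shares were 7.08% and 5.53%. ERF110 (VIT_18s0072g00260), at 168 and 111 CPM in the bud sport, had a difference of -1.40 ± 0.10. Of 44 WRKY genes 15 had a more negative change in 'Summer Black' and none a more positive change. Of 22 XTH genes 10 had a more positive and 2 a more negative change.

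**Figure D5:**
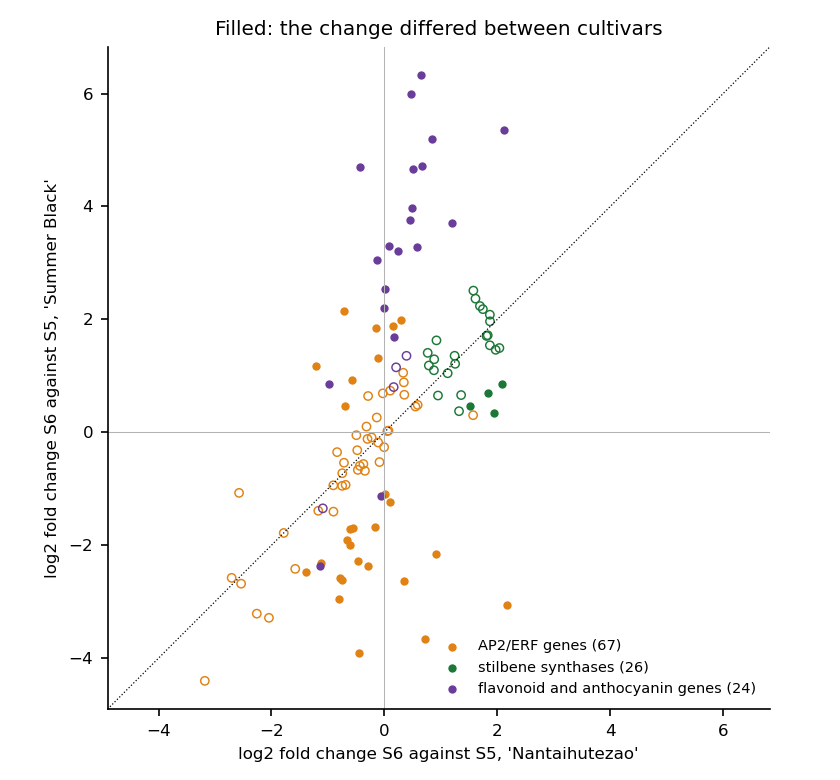
The log2 fold change from S5 to S6 in 'Summer Black' (vertical axis) against that in 'Nantaihutezao' (horizontal axis) for genes tested in both, 67 AP2/ERF genes (orange), 26 stilbene synthases (green) and 24 flavonoid and anthocyanin genes (purple), ANR, LAR and FLS among them. Filled points are the 27, 4 and 20 genes whose change differed between the cultivars by the interaction test, and the dotted line marks equal change. Most flavonoid genes stand above the line, with 3 below it, stilbene synthases lie along it, and filled AP2/ERF genes lie mostly below it.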

How the data were processed

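Pericarp RNA of 'Summer Black' and 'Nantaihutezao' at 6 stages, 7 days apart, was sequenced in 3 replicates per cultivar and stage (TruSeq RNA libraries, HiSeq X-ten). The authors trimmed the reads and aligned them with TopHat 2 to the Vitis vinifera genome. The deposited table holds raw read counts per gene, used here for all tests, and FPKM values that the authors made with Cuffdiff, used here only to rank genes by level per length. The counting tool, the annotation version and the use of strand are not given in the sources used here, so overlapping, antisense and near-identical genes may share reads. The table's 111 columns of the authors' own comparisons were not used.

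Genes were kept with edgeR's filterByExpr (minimum count 10, minimum total 15), scaled by trimmed means over the 6 libraries and tested with edgeR 4.0.16 (R 4.3.3, limma 3.58.1) by the quasi-likelihood test, two-sided, with Benjamini-Hochberg adjustment over all genes tested. A call needed an adjusted p under 0.05 and a log2 fold change beyond 1. SE is the fold change divided by the root of F. The interaction used the 12 libraries of both cultivars at S5 and S6. With 3 libraries against 3, an exact permutation test cannot go below 0.1. Counting intervals are 95% Clopper-Pearson, and the floor is 3 reads per library. PCR reads are not independent molecules, so both cover counting error only.

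Genes named in the text are the 12 highest and 12 lowest log2 fold changes among annotated calls without overlap that reached 5 CPM, the 6 calls in each direction with the highest FPKM, from each of 78 lists up to 4 members of highest FPKM and the largest call in each direction (every member of lists of up to 10), and the 5 largest opposite changes between cultivars in each direction. Not every gene the rule gives is described. The lists and members were chosen with earlier results of these data known. Gene names are the annotation's best matches. Alternatives were DESeq2 1.42.0, other scalings, no filter, other sets of libraries, a replicate block, other call rules and leaving out libraries. The script was tested on simulated data. Figures used matplotlib 3.10.9.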

Additional observations from a re-analysis of the deposited data

Results flagged for a closer look

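Between S5 and S6, 56 genes were called in opposite directions in the 2 cultivars, and the interaction test passed for each of them. They were 39 that rose in 'Summer Black' and fell in 'Nantaihutezao' and 17 that did the reverse. Each value below is the change in 'Summer Black' minus the change in 'Nantaihutezao' on the log2 scale, and the 10 genes named have the largest differences, 5 in each direction.

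An ethylene-responsive factor (VIT_07s0005g03220) was at 6.13, 8.19 and 6.55 CPM and then at 0.960, 0.583 and 0.964 CPM in 'Summer Black', and at means of 0.793 and 3.59 CPM in 'Nantaihutezao', a difference of -5.23. An uncharacterised protein (VIT_12s0059g01720) had a difference of -4.33, and a feruloyl CoA ortho-hydroxylase (VIT_00s0250g00090), an enzyme of coumarin synthesis, had a difference of -3.93. The organelle-type genes for ATP synthase subunit alpha (VIT_00s0733g00010) and psbA (VIT_13s0019g02630) had differences of -3.89 and -3.88, and the share of reads on organelle genes varied between libraries as described above.

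In the other direction, an RNA polymerase subunit (VIT_13s0156g00110) went from 0.846, 1.38 and 1.38 CPM to 6.66, 5.78 and 4.34 CPM in 'Summer Black' and from a mean of 6.54 to 1.59 CPM in 'Nantaihutezao', a difference of 4.23. A glycine-rich wall protein (VIT_05s0051g00690) had a difference of 4.07, a peptide or nitrate transporter (VIT_14s0066g02590) of 4.03, an endo-mannosidase (VIT_18s0089g00160) of 3.89 and a UPF0496 protein (VIT_03s0063g02090) of 3.68. All 10 genes were below 10 CPM on average in both cultivars, apart from psbA.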

How the results depend on the processing

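None of the 144 genes named changed direction under any alternative, and none lost its call when a single library was left out. Of 2014 values of theirs under the alternatives, 22 fell short of the call, for 14 genes. With library size alone, sucrose synthase 2, TIP1-1, SWEET10, peroxidase 31, abscisate glucosyltransferase, a flavanone 3-hydroxylase (VIT_18s0001g14310), a stilbene synthase (VIT_16s0100g01150) and VIT_18s0072g00640 had log2 fold changes of 0.83 to 0.93 and were no longer called. Sucrose synthase 2, the glucosyltransferase and VIT_18s0072g00640 also fell short with upper-quartile scaling.

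For 'Summer Black', dropping the fold threshold gave 10650 calls (5234 higher, 5416 lower), testing against it with glmTreat gave 1778 (704 and 1074), and library size alone gave 752 higher. For the difference between cultivars the first gave 7448 (4021 and 3427) and the second 874 (569 and 305), both by the construction of the rule. DESeq2, no filter, upper-quartile scaling and wider sets of libraries kept these counts within 1.5 times. Leaving out single libraries gave 2866 to 2952 calls in 'Summer Black', and leaving out a letter from all 4 groups gave 1855 to 1919 for the difference. Of 2340 counts over lists, 210 moved by more than 1.5 times, mostly small ones. The letters a, b and c do not pair the samples, as same-lettered deviations correlated at 0.045, -0.042 and 0.042. A replicate block gave 2820 calls (1145 higher, 1675 lower) and 2025 for the difference. Depth limits genes below about 0.16 CPM.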

Other observations

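Pathway maps and annotation classes outside the lists were read after the values were seen, and are given as counts for maps or classes with at least 20 genes tested. In the steroid biosynthesis map, which makes membrane sterols, 8 of 32 genes rose and 1 fell, and in the galactose metabolism map 8 of 40 rose and 2 fell. In the glutathione metabolism map 9 of 78 rose and 14 fell, and in the map of alpha-linolenic acid metabolism, which includes jasmonate synthesis, 3 of 40 rose and 11 fell. In the map of plant hormone signalling 16 of 159 rose and 45 fell. These stand against 7.28% and 10.6% of all genes tested.

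By broad class, secondary metabolite genes had 60 of 356 up and 74 down, and transcription genes 20 of 614 up and 80 down. The class of DNA replication and repair had 24 of 239 up and 4 down, and cytoskeleton genes 19 of 191 up and 9 down. Extracellular structure, chromatin and translation genes had 3.03%, 3.97% and 4.21% of members called in either direction, against 17.9% of all genes. Of 332 tested genes that the authors assembled anew and that carry no gene model of the reference, 16 rose and 47 fell.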
